A study of Mus musculus with 9 samples.

Results

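The miR-101 family of the mouse atrium was described from 3 microRNA (miRNA) precursors, listed as mmu-mir-101a, mmu-mir-101b and mmu-mir-101c and called miR-101a, miR-101b and miR-101c here, out of 661 miRNA precursors and 996 small RNA features of all kinds in the files. The members were chosen by name, with their values in the groups already known, so the differences between groups given here are descriptions and carry no test. All 3 members passed the filter on low counts, as did 209 miRNA precursors in all. Atrial appendages of C57BL/6 mice gave 9 libraries of small RNA between 15 and 45 nucleotides, 3 in each of 3 groups. The curcumin group was 18 months old and had received curcumin, the yellow polyphenol from turmeric, at 100 mg/kg every day in non-fat skim milk between 12 and 18 months of age. The old group was 18 months old and the young group 5 months old, both without curcumin. The labels name no altered allele in any group, and they do not say whether a library came from 1 animal or from pooled animals, nor whether the groups without curcumin were given milk. The libraries were made by PANDORA-seq, in which AlkB takes off methyl groups that stop reverse transcription and T4 polynucleotide kinase makes more RNA ends fit for ligation. P-values over all features set a difference between groups against the spread between these libraries, which need not be the spread between animals.

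A miRNA is cut from a hairpin precursor and guides the Argonaute proteins to messenger RNAs, mainly through its seed, the bases near its 5′ end that pair with the target. miR-101 is known as a repressor of Ezh2, the methyltransferase of the Polycomb complex (shown in human cancer cells), and of Ptgs2, which encodes cyclooxygenase-2 (shown in the mouse uterus). In rat heart fibroblasts it is known to repress the transcription factor Fos and to limit scarring after infarction.

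The mature sequences are shown because they define the family and because their annotated starts differ. They are RefSeq's for GRCm38.p6, which is the mm10 build, given 5′ to 3′, and capitals mark the stretch ACAGUAC that the miR-101 sequences share, or the seed (bases 2 to 8) of miR-144-3p.
miR-101a-3p: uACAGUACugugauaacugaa
miR-101b-3p: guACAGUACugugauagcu
miR-101c: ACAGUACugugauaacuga
miR-144-3p: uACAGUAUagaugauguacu

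ACAGUAC began at base 2 of miR-101a-3p, at base 3 of miR-101b-3p and at base 1 of miR-101c. The annotated seeds, bases 2 to 8, are therefore the same stretch read in windows that are offset by 1 base each. Of the 1679 mature mouse miRNAs in the table, ACAGUAC stood within the first 10 bases of these 3 and of no other, and at bases 2 to 8 of miR-101a-3p alone. miR-144-3p, a miRNA of red blood cell precursors, shared ACAGUA at bases 2 to 7 with miR-101a-3p and differed at the last base of the seed.

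The precursors lie on 3 chromosomes. Mir101a is at chr4:101346945-101347027 on the minus strand (mm10), within an exon of the long noncoding RNA E130102H24Rik on the same strand. Mir101b is at chr19:29135279-29135375 on the plus strand, within an intron of Rcl1, a gene of ribosomal RNA processing. Mir101c is at chr9:3038669-3038743 on the minus strand, where the annotation holds no other gene. No other annotated miRNA lay within 10 kb of any of the 3, so none is part of a miRNA cluster at that distance.

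The hairpins of miR-101a and miR-101b are shown because the deposited values were given per precursor, and both contain 1 identical run of 20 bases, in capitals here.
Mir101a hairpin: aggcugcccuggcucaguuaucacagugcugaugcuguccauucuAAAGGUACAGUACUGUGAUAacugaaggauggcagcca
Mir101b hairpin: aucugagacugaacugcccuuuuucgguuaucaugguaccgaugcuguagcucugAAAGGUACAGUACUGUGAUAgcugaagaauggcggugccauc

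The shared run covers the first bases of both 3p arms, after which their last bases differ. Reads that lie within the run match both precursors. The 19 bases of mature miR-101c lie whole within the miR-101a hairpin. Reads of that stretch alone cannot be told apart, and the counts of miR-101c are uncertain for that reason. Values ending in 0.5 of a read, which arise when 1 read is divided between annotations, occurred in 5 of 9 libraries for miR-101a, in 4 for miR-101b and in 3 for miR-101c. Both arms of a hairpin are pooled in its value. Every read assigned to a member matched the genome.

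The 9 libraries held between 12899427 and 19707803 clean reads. In curcumin replicates 1 to 3, miRNAs took 3.21%, 4.22% and 3.53% of the clean reads. The old replicates had 3.32%, 1.23% and 2.37%, and the young ones 4.66%, 1.34% and 1.88%. This share spanned 3.80-fold over the libraries, so levels are given on a pair of scales. Values of a group are listed in the order of its replicates 1 to 3. RPM are reads for each 1000000 clean reads, and miRNA RPM are reads for each 1000000 miRNA reads of the library. A level is a number of inserts and is not scaled by length. The 3 libraries numbered 1 had 72.2% to 73.7% of their reads matched to the genome and the other 6 had 65.0% to 68.3%. The labels give no batch, and values are given with and without the libraries numbered 1. Of the 7 cardiac muscle precursors listed as markers, 5 passed the filter. miR-1a-1 had 31351 to 172370 reads and miR-208a, of the cardiac myosin gene Myh6, had 199 to 676 reads, while miR-208b and miR-499 had at most 2 and 5 reads. Levels are per library, and fewer cells of a type and less RNA per cell cannot be told apart in such bulk tissue.

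The family as a whole was highest in young replicate 1 and lowest in old replicate 2 per clean read. Its summed level was 231, 289 and 171 RPM in curcumin replicates 1 to 3, against 206, 35.3 and 90.0 in the old libraries and 326, 41.5 and 50.5 in the young libraries. All 3 curcumin libraries lay at or above 171, while the old and young groups each held 1 library above that value and others at or under 90.0. The level averaged 230 ± 59.3 RPM in curcumin-treated, 110 ± 86.9 in old and 139 ± 161 in young mice (SD, n = 3 each). The order of the means was curcumin, young, old, and neither neighbouring pair in it differed by more than the larger SD of the pair. The curcumin and old means, at the ends of that order, differed by more than the larger SD of 86.9, though their libraries overlapped. Over the 9 libraries the level spanned 9.21-fold, while the 95% Wilson interval of a single library had a half-width of at most 7.92% of its value. These intervals hold counting error alone, as PCR copies of 1 molecule can give several reads.

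**Figure D1:**
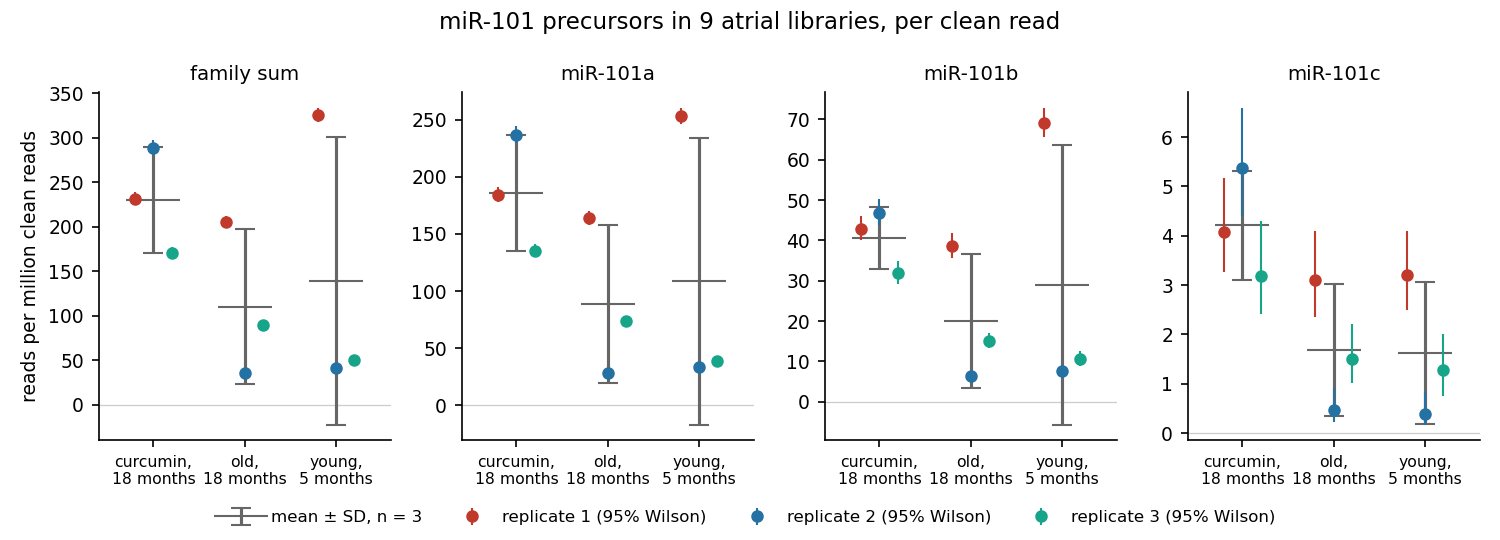
Reads for each 1000000 clean reads, RPM (linear axes), of the summed family, miR-101a, miR-101b and miR-101c in curcumin-treated, old and young mice. Points are single libraries with 95% Wilson intervals, coloured by replicate number, and the grey lines are means ± SD (n = 3 each). The family sits between 171 and 289 in the curcumin libraries, and the old and young groups each have replicate 1 far above the other two.

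Per miRNA read the spread was smaller. The family stood at 7217, 6846 and 4835 miRNA RPM in curcumin replicates 1 to 3, against 6192, 2878 and 3802 in the old libraries and 6987, 3087 and 2683 in the young libraries. Curcumin replicate 1 was now the highest library and young replicate 3 the lowest. The means were 6300 ± 1282 miRNA RPM in curcumin-treated, 4291 ± 1710 in old and 4252 ± 2377 in young mice (SD, n = 3 each), and the range over libraries was 2.69-fold. The family thus made up 0.268% to 0.722% of the miRNA reads of a library, and its summed reads ranked between 20 and 43 among the precursors. On both scales the groups overlapped in all 3 comparisons. Per clean read, 12.7% of the 520 features had curcumin and old groups apart, 9.42% had curcumin and young groups apart and 4.04% had old and young groups apart. Per miRNA read, this held for 19.1%, 14.4% and 7.66% of the 209 miRNAs in the same order.

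**Figure D2:**
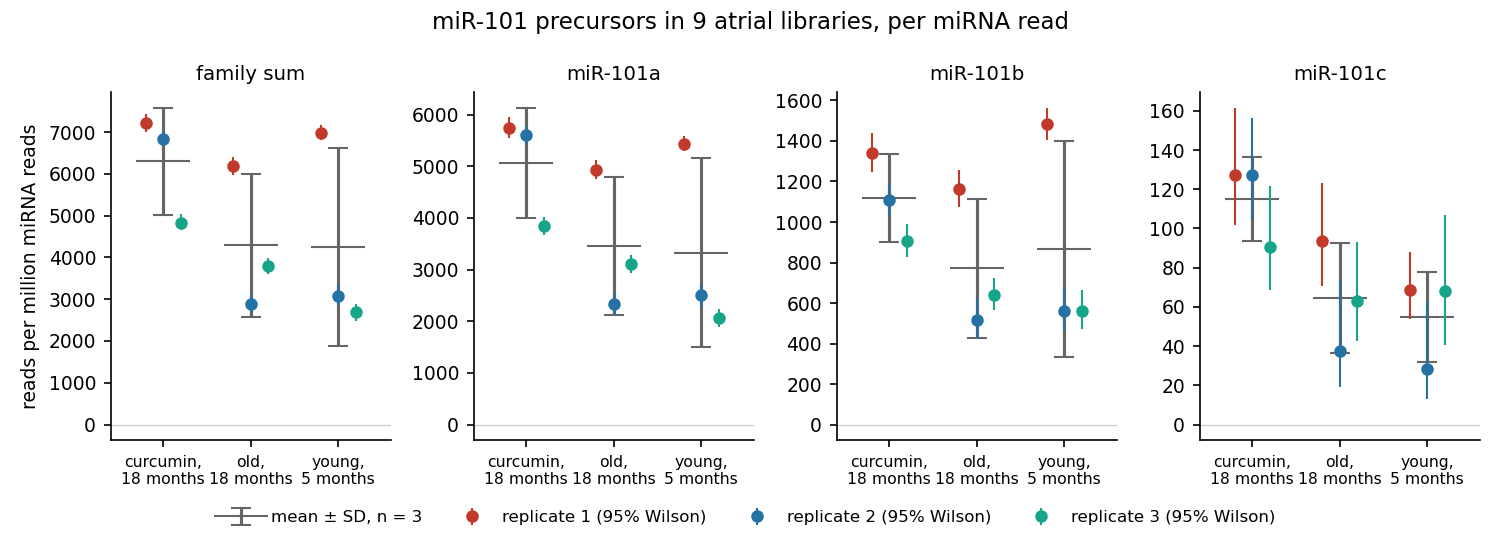
The same levels as miRNA RPM, reads for each 1000000 miRNA reads (linear axes), with single libraries and 95% Wilson intervals by replicate number, and means ± SD (n = 3 each). The family lies between 2683 and 7217 over the 9 libraries, and for the family the library numbered 1 is the highest in each of the 3 groups.

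miR-101a carried most of the family. It had 3227.5, 4092.5 and 1933 reads in curcumin replicates 1 to 3, against 2642.5, 495 and 1228 reads in the old libraries and 4992, 525.5 and 499.5 reads in the young libraries. These were 184, 237 and 135 RPM in curcumin-treated, 164, 28.5 and 73.4 in old, and 253, 33.6 and 38.7 in young mice. The curcumin range lay inside the span of the young group and its lower end below the highest old library.

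miR-101b had 752, 809.5 and 456.5 reads in curcumin replicates 1 to 3, against 621.5, 110 and 253 reads in the old libraries and 1362, 117.5 and 136 reads in the young libraries. These were 42.9, 46.8 and 32.0 RPM in curcumin-treated, 38.5, 6.34 and 15.1 in old, and 69.1, 7.51 and 10.5 in young mice. The libraries stood in much the order they had for miR-101a, with young replicate 1 highest and old replicate 2 lowest.

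miR-101c was the rare member, with 71.5, 93 and 45.5 reads in curcumin replicates 1 to 3, against 50, 8 and 25 reads in the old libraries and 63, 6 and 16.5 reads in the young libraries. Its levels were 4.08, 5.38 and 3.19 RPM in curcumin-treated, 3.10, 0.461 and 1.49 in old, and 3.20, 0.383 and 1.28 in young mice. Its lowest curcumin library, at 3.19, stood just above the highest old library, at 3.10, and just below the highest young library, at 3.20, differences well inside the counting intervals of 2.42 to 4.30 in curcumin replicate 3 and 2.35 to 4.09 in old replicate 1. With 12.7% of all features apart in this way, nothing is read from the gap of miR-101c. Per miRNA read it was the young group that did not overlap the curcumin group. miR-101c stood at 127, 127 and 90.4 miRNA RPM in curcumin replicates 1 to 3, against 68.6, 28.5 and 67.9 in the young libraries. On that scale 14.4% of miRNAs had these groups apart.

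The shares of miR-101a and miR-101b in the family varied less than the family's level. miR-101b took 18.6%, 16.2% and 18.7% of the family's reads in curcumin replicates 1 to 3, against 18.8%, 17.9% and 16.8% in the old libraries and 21.2%, 18.1% and 20.9% in the young libraries. The shares averaged 17.8% ± 1.42 in curcumin-treated, 17.8% ± 0.982 in old and 20.1% ± 1.71 in young mice (SD, n = 3 each). The young group had the 2 highest libraries, and its lowest fell inside the range of both other groups. miR-101c took between 0.925% and 2.53% of family reads, with the interval of the highest library, young replicate 3, reaching from 1.52% to 3.95% on 16.5 reads. There were 3.67 to 5.06 miR-101a reads for each miR-101b read.

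**Figure D3:**
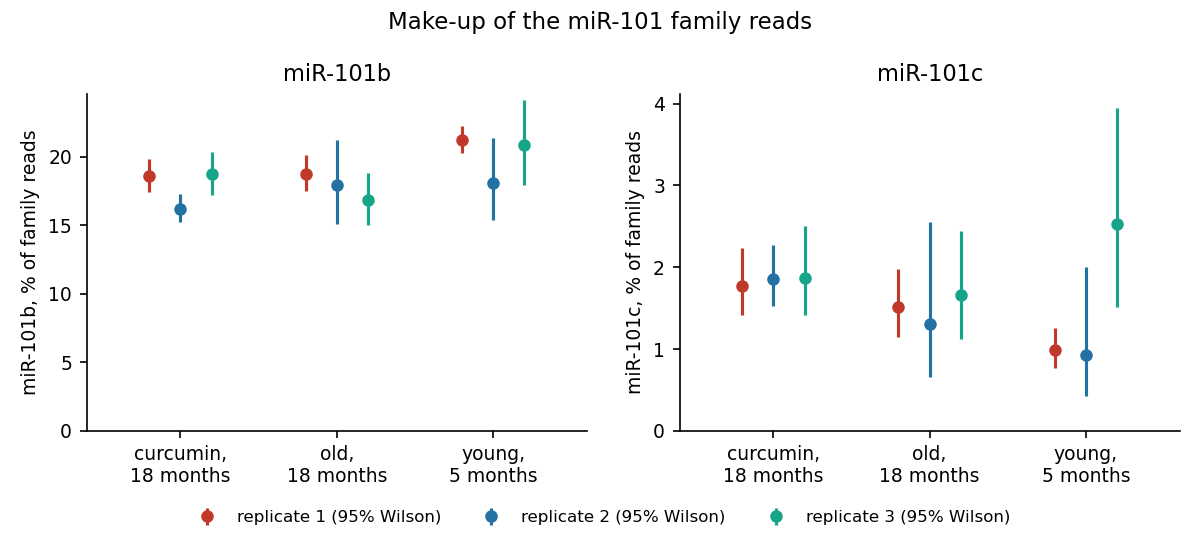
Share of family reads (%) taken by miR-101b (left) and miR-101c (right) in each library of the curcumin-treated, old and young mice, with 95% Wilson intervals, coloured by replicate number. miR-101b stays between 16.2% and 21.2% in all 9 libraries.

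The comparison of curcumin-treated old mice with old mice without curcumin asks how atria differed after daily curcumin at the same age. The family averaged 2.09 times its old level per clean read and 1.47 times per miRNA read. The curcumin library was the higher one at each replicate number. The factors were 1.13, 8.18 and 1.89 per clean read for numbers 1 to 3, and 1.17, 2.38 and 1.27 per miRNA read. The labels do not pair libraries by number, and old replicate 1, at 206 RPM, lay above curcumin replicate 3, at 171 RPM. In the edgeR fit over all features, with TMM scaling, the log2 change of the family was 0.87 ± 0.70 (SE). On that scale miR-101a was fitted at 0.87, miR-101b at 0.83 and miR-101c at 1.14, beside a median of 0.25 over 209 miRNAs and 0.08 over 520 features. Larger changes were fitted for 12, 15 and 3 of the 209 miRNAs than for miR-101a, miR-101b and miR-101c. In this fit edgeR called 0 of 520 features at an adjusted p under 0.05, a share of 0%, and 21 had an unadjusted p under 0.05. DESeq2 called 0 with 29 at an unadjusted p under 0.05, and limma-voom called 0 with 22.

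The size of that difference depended on single libraries. The family's log2 change was 1.66 without old replicate 1 and 0.47 without old replicate 2. Without all 3 libraries numbered 1, the family averaged 230 RPM in curcumin-treated and 62.7 RPM in old mice, a ratio of 3.67. In miRNA RPM the means were 5841 in curcumin-treated and 3340 in old mice, a ratio of 1.75 (n = 2 each). The groups then did not overlap on either scale, as was so for 62.9% of the 520 features per clean read and 53.1% of the 209 miRNAs per miRNA read, and nothing is read from it. The fitted log2 changes without them were 1.60 for miR-101a, 1.62 for miR-101b and 1.88 for miR-101c, beside a miRNA median of 0.59. Called features numbered 73 of 519, or 14.1%, of which 34, or 6.55% of all, were higher in curcumin-treated mice. Of the 210 miRNAs in that fit, 30, or 14.3%, were called higher in curcumin-treated mice. All 3 members were among those 30 miRNAs, which is a description only, since they were chosen with these values known. Mature miR-101c lies whole within the miR-101a hairpin, so the 3 are not fully separate counts. With miRNAs fitted alone on the same 6 libraries, 22 of 206 were called, or 10.7%, with 13 of them, or 6.31% of all, higher in curcumin-treated mice, and miR-101a and miR-101b were called while miR-101c was not. The family's log2 change was then 1.10 ± 0.22 (SE).

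The comparison of curcumin-treated old with young mice sets the treated atrium beside that of young adults. The family averaged 1.65 times its young level per clean read and 1.48 times per miRNA read. The direction differed between replicate numbers: the curcumin library had 0.711, 6.97 and 3.37 times the level of the young library per clean read for numbers 1 to 3. Per miRNA read the ratios were 1.03, 2.22 and 1.80. The log2 change of the family was 0.72 ± 0.70 (SE), with 0.76 for miR-101a, 0.49 for miR-101b and 1.32 for miR-101c, beside a miRNA median of 0.07 and a median over all features of -0.01. For these members 16, 40 and 2 of the 209 miRNAs had larger fitted values. edgeR called 0 of 520 features, a share of 0%, with 19 at an unadjusted p under 0.05, DESeq2 called 1, which was lower in curcumin-treated mice, with 30 at an unadjusted p under 0.05, and limma-voom called 0, with 17. A fit blocked on the replicate number also called 0, and in it the family's log2 change was 1.24 ± 0.51 (SE).

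This value rested on the young libraries. The log2 change of the family was 1.87 without young replicate 1, 0.43 without young replicate 2 and 0.44 without young replicate 3. Leaving out all 3 libraries numbered 1 gave 1.93 ± 0.34 (SE). In those 6 libraries the family averaged 230 RPM in curcumin-treated and 46.0 RPM in young mice, a ratio of 5.00. In miRNA RPM the means were 5841 in curcumin-treated and 2885 in young mice, a ratio of 2.02 (n = 2 each). These groups did not overlap on either scale, as was so for 60% of the features per clean read and 64.6% of miRNAs per miRNA read. Called features then numbered 67 of 519, or 12.9%, of which 37, or 7.13% of all, were higher in curcumin-treated mice. Of the 210 miRNAs in that fit, 33, or 15.7%, were called higher in curcumin-treated mice, the 3 members among them. Calls of the members, here and with miRNAs alone, are descriptions only, since the members were chosen with these values known. Their counts are not fully separate, as said above. With miRNAs alone, 28 of 206 were called, or 13.6%, with 18 of them, or 8.74% of all, higher, and miR-101a and miR-101b were called while miR-101c was not. In that fit the family's log2 change was 1.38 ± 0.23 (SE). This comparison shares its curcumin libraries with the one against old mice.

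The comparison of old with young mice addresses age. The family had no settled direction, being near its young level per miRNA read and changing sign with single libraries. It averaged 0.792 times its young level per clean read and 1.01 times per miRNA read, and the old library had 0.631, 0.852 and 1.78 times the level of the young one per clean read for numbers 1 to 3. The log2 change of the family was -0.15 ± 0.70 (SE), with -0.11 for miR-101a, -0.35 for miR-101b and 0.18 for miR-101c, beside a miRNA median of -0.15. Larger values were fitted for 89, 149 and 36 of the 209 miRNAs than for these members. Without young replicates 1, 2 and 3 in turn the family's value was 1.04, -0.47 and -0.46. Without old replicates 1, 2 and 3 in turn it was -0.86, 0.26 and 0.0018. edgeR called 0 of 520 features (0%) in all libraries, with 5 at an unadjusted p under 0.05, and 0 of 519 without the libraries numbered 1, with 17 at an unadjusted p under 0.05. DESeq2 and limma-voom called 0 in all libraries, with 5 and 2 at an unadjusted p under 0.05.

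**Figure D4:**
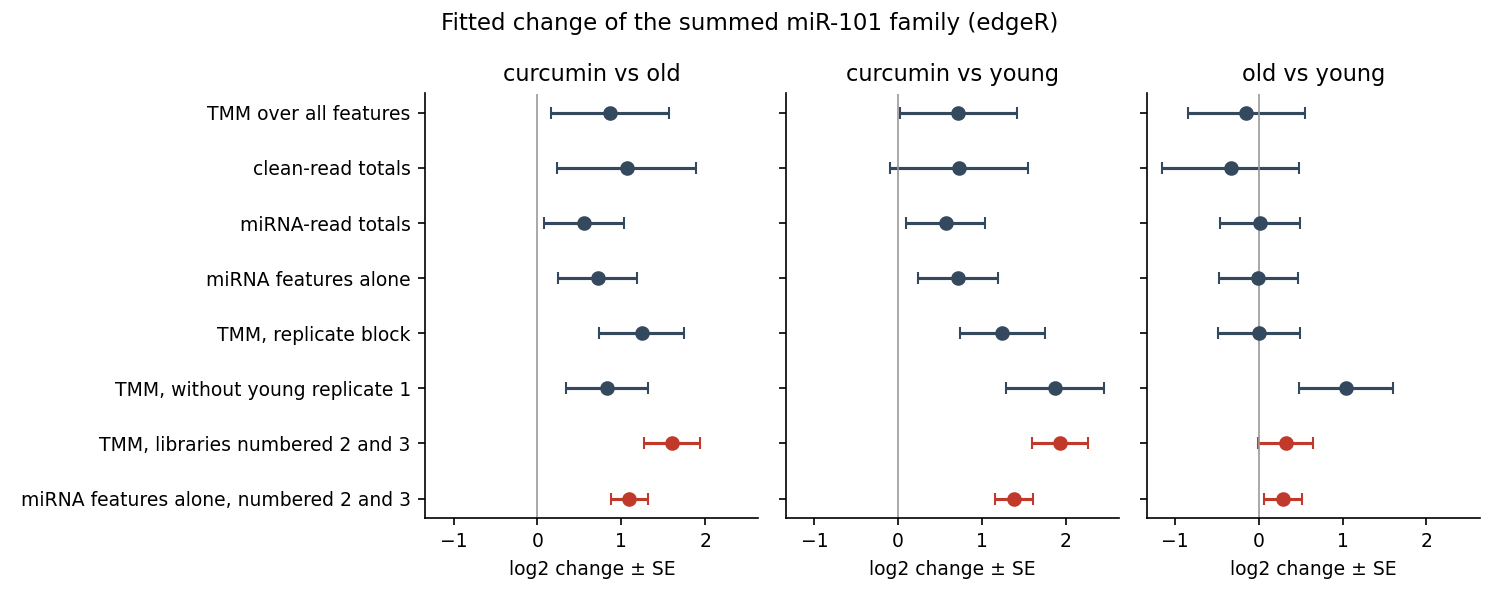
Log2 change ± SE of the summed family in edgeR (horizontal axis) for curcumin-treated against old, curcumin-treated against young and old against young mice, under the scalings and sets of libraries named at the left. Red points are the fits without the libraries numbered 1, where the family's change was 1.61 against old and 1.93 against young mice with TMM over all features.

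The change against old mice kept its sign under each scaling, but its size followed the scale. Scaling to clean-read totals gave the family 1.06 ± 0.83 (SE) and moved the median of the 520 features to 0.31, so that the family stood 0.75 above it. Scaling to miRNA-read totals gave 0.55 ± 0.48 and a median of -0.49, with the family 1.04 above it. With TMM scaling the family stood 0.79 above the median of all features and 0.62 above the median of miRNAs. Against young mice the family stood 0.54 above the median of all features with clean-read totals, 1.05 above with miRNA-read totals and 0.73 above with TMM. Old against young mice gave -0.25, -0.02 and -0.11 for the same differences.

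The miRNAs whose levels most resembled the family were sought among 183 other miRNAs, by the root mean square difference of centred log2 CPM over the 9 libraries, where CPM are reads for each 1000000 feature reads after TMM scaling. The smallest differences were those of miR-29c (0.187), miR-29a (0.208), miR-148a (0.281), miR-148b (0.310) and miR-322 (0.329), beside a median of 0.812 and a largest value of 2.05. The 9 libraries shared their depth and miRNA content across these miRNAs, so a small difference also holds what is common to all miRNAs of a library. miR-29a and miR-29c are known repressors of collagen genes, and miR-322 is the mouse counterpart of human miR-424. miR-29c stood at 307, 300 and 217 CPM in curcumin replicates 1 to 3, against 330, 62.6 and 138 CPM in the old libraries and 505, 90.6 and 80.1 CPM in the young libraries. miR-148a stood at 394, 390 and 349 CPM in curcumin replicates 1 to 3, against 316, 50.9 and 130 CPM in the old libraries and 283, 76.9 and 77.0 CPM in the young libraries. Both were lowest in old replicate 2, as the family was, and young replicate 1 was highest for miR-29c but not for miR-148a.

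**Figure D5:**
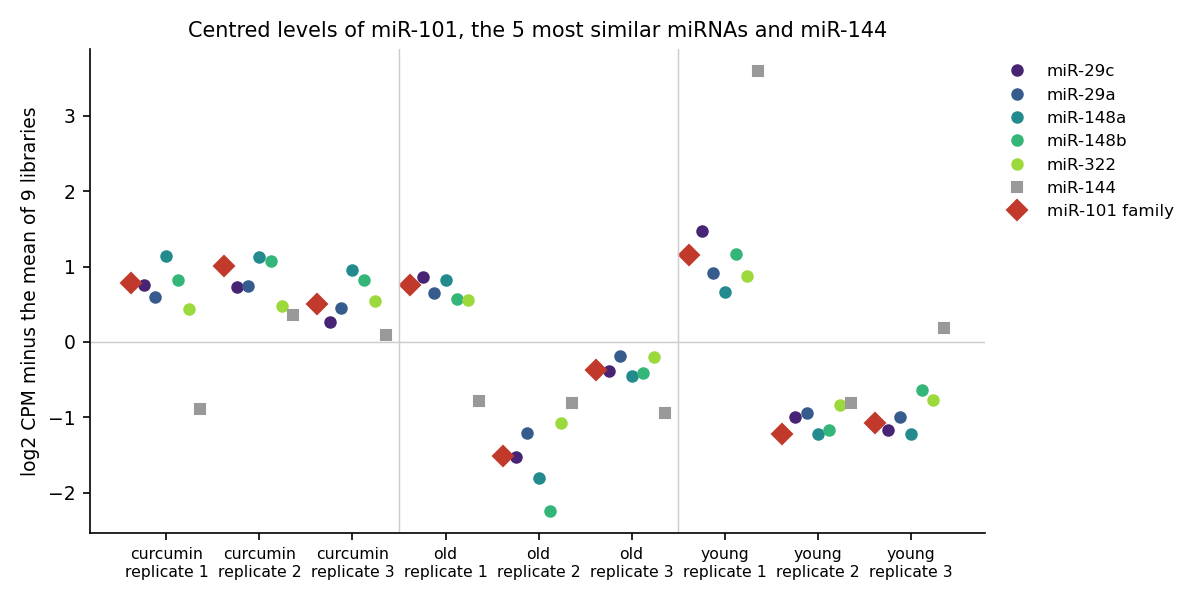
Log2 CPM minus the mean of the 9 libraries (vertical axis) for the summed family, the 5 miRNAs most like it and miR-144, in each curcumin-treated, old and young library. The 5 miRNAs lie near the family in every library, and miR-144 stands apart, most of all in young replicate 1.

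miR-144, which shares most of the miR-101 seed, did not follow the family: its root mean square difference was 1.26. It had 56, 143 and 82 reads in curcumin replicates 1 to 3, against 50, 44 and 44 reads in the old libraries and 1591, 38 and 70 reads in the young libraries. Its level was 80.7 RPM in young replicate 1, and at most 8.27 in the other 8 libraries. The 4 red blood cell precursors on the marker list, miR-144 among them, summed to 24.6 to 57.6 RPM in curcumin-treated, 36.5 to 42.5 in old and 38.1 to 296 in young mice. The 4 leukocyte precursors summed to 93.2 to 129.5 RPM in curcumin-treated, 42.5 to 87.9 in old and 36.7 to 369 in young mice, again with young replicate 1 at the top. The members of each list parted in that library. miR-451a stood at 167 CPM there and at most 16.5 CPM elsewhere, while miR-486a, at 18.9 CPM, was inside the range of the other 8 libraries. miR-142a stood at 263 CPM there and at most 74.5 CPM elsewhere, while miR-155, at 1.45 CPM, was at its lowest. All 4 of 4 had reads in every library for both lists, and the part of these cells in the family's level of young replicate 1 was not tested.

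Markers of muscle and vessel cells had their lowest summed level per clean read in old replicate 2, as the family did. That library also had the lowest share of miRNA reads, 1.23% of clean reads. Not every miRNA was at its lowest there, as miR-144 had 2.54 RPM in it and 2.43 RPM in young replicate 2. The part of that share in the family's level was not tested. Per miRNA read the family was lowest in young replicate 3, at 2683 miRNA RPM. The 7 cardiac muscle precursors summed to 11504 to 18185 RPM in curcumin-treated, 3767 to 11949 in old and 4299 to 17963 in young mice. Endothelial miR-126a stood at 7720 to 9066 RPM in curcumin-treated, 3039 to 8519 in old and 3200 to 10994 in young mice. The smooth muscle precursors miR-143 and miR-145a summed to 584 to 774 RPM in curcumin-treated, 174 to 553 in old and 212 to 688 in young mice. miR-143 carried that difference, at 578 ± 61.0 CPM in curcumin-treated, 314 ± 161 CPM in old and 313 ± 144.2 CPM in young mice, while miR-145a averaged 112 ± 15.7, 115 ± 38.1 and 126 ± 44.0 CPM in the same groups (SD, n = 3 each). Their part in the family's differences was not tested. Liver miR-122 had 14 to 56 reads, and of the 6 neuronal precursors the 3 of miR-124 had at most 0.33 of a read in any library. The 3 of miR-9 had 3.67 to 39 reads and passed the filter, with a median log2 change of 0.73 in curcumin-treated against old mice. Epithelial miR-200a had 7 to 57 reads.

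Other miRNAs known to act on the same targets were set beside the family. Of 7 precursors of miRNAs directed at Ezh2, 4 passed the filter, and edgeR called 0 of them in any of the 3 comparisons with all 9 libraries, with 0 at an unadjusted p under 0.05. The median log2 change of the 4 was 0.33 in curcumin-treated against old mice, 0.41 in curcumin-treated against young mice and 0.12 in old against young mice. miR-26b, the most abundant of them, stood at 231, 280 and 247 CPM in curcumin replicates 1 to 3, against 281, 135 and 224 CPM in the old libraries and 322, 133 and 179 CPM in the young libraries. Its groups overlapped. Without the libraries numbered 1, 2 of the 4 were called higher in curcumin-treated than in young mice, and 0 in the other comparisons. In that fit 15.7% of all miRNAs were called higher than in young mice. The 4 were miR-26b, miR-214, with 6 to 18 reads, and both loci of miR-26a. Those loci had nearly the same reads, so the 4 are not separate miRNAs and nothing is read from the count. The 2 loci of miR-199a, which is known to act on Ptgs2 beside miR-101a, had a median log2 change of 0.39 in both curcumin comparisons and of -0.01 in old against young mice, with 0 called by edgeR with or without those libraries.

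A list of 15 precursors known to act on collagen and other connective tissue genes, which holds the miR-29 and miR-30 families, miR-133a, miR-21a and the miR-26a loci that are also on the Ezh2 list, had 0 called by edgeR over all 9 libraries and 0 at an unadjusted p under 0.05 in each comparison. Its fitted changes were positive for 15 of 15 in curcumin-treated against old mice (median 0.42), for 15 of 15 in curcumin-treated against young mice (median 0.31) and for 4 of 15 in old against young mice (median -0.14). The miRNA medians for the same comparisons were 0.25, 0.07 and -0.15. Of all 209 miRNAs in that fit, 161 had a positive change in curcumin-treated against old mice and 69 in old against young mice. In curcumin-treated against young mice most of the 209 were positive as well. Nothing is read from the counts of positive changes in the list. miR-29a stood at 596, 657 and 537 CPM in curcumin replicates 1 to 3, against 618, 170 and 347 CPM in the old libraries and 741, 204 and 198 CPM in the young libraries. Without the libraries numbered 1, 8 of the 15 were called higher in curcumin-treated than in old mice, where 14.3% of all miRNAs were. Against young mice 10 of the 15 were called higher, where 15.7% of all miRNAs were. miR-29b, miR-30c, miR-133a and miR-26a each entered the list as a pair of loci with nearly the same reads. The 15 are therefore not separate miRNAs, and such a pair counts double in these numbers.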

How the data were processed

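The deposited values were expected counts of reads per annotation, whose fractions of 0.5 or 0.33 show that some reads were divided among annotations, and whose totals differ between libraries as in counts that were not normalized. Per the submitters' processing notes, cutadapt 2.5 and the mm10 build were used. Which annotation tool was used and whether UMIs were collapsed is not given in the sources used here. Genome-matched and unmatched reads were summed for each of 996 features and rounded to whole numbers. edgeR 4.0.16 in R 4.3.3 (quasi-likelihood, robust, TMM, filterByExpr with a minimum count of 10, group as the only term, all 9 libraries) tested 520 features, with Benjamini-Hochberg adjusted p under 0.05 as the call. The family's change was fitted with its members summed and the same scaling. Log2 CPM used a prior count of 2.

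The members, lists and rules were chosen with earlier results of these data known. The rule named the members, miR-144, up to 4 of the most abundant precursors of each list and the 5 miRNAs most like the family. Not all that it allows are printed, and miR-208b, miR-499 and miR-124 were named after their values were seen. Same-numbered libraries deviated together in old and young mice (correlations 0.271 to 0.806 over features) and in curcumin-treated and young mice (0.193 to 0.33), but not in every pair of curcumin-treated and old mice (-0.073 to 0.368). Libraries numbered 2 also deviated together with those numbered 3 of another group (0.219 to 0.543), except old replicate 2 with curcumin replicate 3 (0.046). Libraries numbered 1 against those numbered 2 or 3 ran from -0.726 to 0.021. Deviations were taken from the mean of the 3 libraries of a group, so part of these negative values is fixed by construction. Number 1 stood apart as a description only, and the values do not show that numbers 2 and 3 are pairs. The labels name no pairing either. Library totals of 12899427 to 19707803 clean reads set Wilson intervals at a confidence level of 95%. Positions came from the GENCODE annotation of mm10 and sequences from RefSeq. Alternatives were other scalings, filters and tools (DESeq2 1.42.0, limma-voom of limma 3.58.1), fits of the compared pair of groups, reads that matched the genome, the block, and leaving out each library. Fits without the libraries numbered 1 and of miRNAs alone were added after seeing the data.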

Additional observations from a re-analysis of the deposited data

How the results depend on the processing

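In curcumin-treated against old mice the family's log2 change was positive under 13 alternatives of scaling, filter, tool, reads, groups, block and libraries (0.55 to 1.61) and with each library left out in turn (0.47 to 1.66). Against young mice it was also positive, at 0.57 to 1.93 and, leaving out each library, 0.43 to 1.87. The value of 1.93 came without the libraries numbered 1 and that of 1.87 without young replicate 1. In old against young mice it ran between -0.34 and 0.32, and leaving out each library gave -0.86 to 1.04, with 6 of 9 values below 0. miR-101b's share of family reads was lower in old than in young mice by 1.65 to 3.21 percentage points when a library was left out. Called features numbered 0 of 520 and stayed at 0 when any single library was left out. Without the libraries numbered 1, 73 features were called against old and 67 against young mice, and 22 and 28 with miRNAs alone. DESeq2 called 1 against young mice. The cause was not tested.

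With the replicate block, edgeR called 0 features in each comparison, and the family's log2 change was 1.25 in curcumin-treated against old, 1.24 in curcumin-treated against young and -0.0014 in old against young mice. Low counts limited miR-101c, which had 6 to 93 reads in a library.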
